A study of Homo sapiens with 6 samples.

Results

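The clustered protocadherins were examined in DKO1 and WT cells of HCT116, an established human colorectal cancer line. The members were the rows of the deposited table whose Ensembl identifier, with its version removed, belongs to a protein-coding PCDHA, PCDHB or PCDHG isoform gene of chromosome 5. This gave 51 genes of 57820 human gene rows, of which 15 were in the alpha cluster, 15 in the beta cluster and 21 in the gamma cluster. The symbols PCDHB16 and PCDHGB5 had no row under their reference identifiers and are not analysed here. RNA was measured in 3 DKO1 samples, from a line that the submitters describe as HCT116 with DNMT1 and DNMT3B knocked out, and in 3 WT samples, from the parental line. Both lines grew in the same serum-containing medium without any stated treatment. All DKO1 samples are of 1 derived line, so the loss of these genes and other differences between the lines cannot be told apart. Nothing in the labels shows the replicates to be separate cultures, and the p-values therefore reflect only the spread among these samples, which may be technical.

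The knocked-out genes were lower in DKO1 but not absent. DNMT1, the maintenance methyltransferase, had 31.1, 30.8 and 46.8 TPM in DKO1, against 244.9, 250 and 231 TPM in WT (log2 fold change −2.73, SE 0.17, adjusted p = 8.23e-05). DNMT3B, a de novo methyltransferase, had 4.86, 4.85 and 3.56 TPM in DKO1, against 8.22, 7.09 and 6.77 TPM in WT (adjusted p = 0.0351). The DNMT3B call was lost in 5 of the 6 fits that left out a sample, all but that without DKO1 replicate 2 (adjusted p from 0.0532 to 0.128), and after rescaling without mitochondrial and spike-in genes (0.0702). A level of 1 TPM was reached by 13327 to 14419 genes in DKO1 and by 12110 to 12465 genes in WT.

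Clustered protocadherins are cell-surface adhesion proteins, best known from neurons. In mouse neurons each cell uses a small set of isoforms, and the combination marks its surface, because matching isoforms bind each other between membranes. Each alpha and gamma gene has a variable first exon with its own promoter, and this exon is spliced to constant exons shared by its whole cluster, whereas the beta genes have no shared constant exons. CTCF and cohesin bind at the promoters and a distant enhancer, and methylation of a promoter is known to accompany its silence.

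The members were near silent in WT cells and low in DKO1 cells, and the DKO1 level was higher for nearly all of them. Values are TPM, a gene's share of the RNA of its sample, corrected for gene length. The summed level of the 51 members was 14.09, 15.83 and 13.74 TPM in DKO1 replicates 1, 2 and 3, against 2.34, 2.87 and 2.41 TPM in WT replicates 1, 2 and 3. The sums of the genotypes did not overlap, and their means differed 5.73-fold. No WT mean reached 1 TPM, and 4 DKO1 means did, namely those of PCDHGA10, PCDHB2, PCDHB14 and PCDHAC2. The median of the members' means was 0.16 TPM in DKO1 and 0.0133 TPM in WT, beside medians over 19263 protein-coding genes of 2.96 TPM in DKO1 and 1.82 TPM in WT. At least 0.1 TPM was reached by 33 DKO1 means and 7 WT means of the 51. In these bulk values, few cells with a gene and little RNA in each cell cannot be told apart.

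PCDHB1 was listed at 0 in every sample, which left 50 members with a value. For 44 of these 50, all 3 DKO1 values lay above all 3 WT values. Over all human genes with a value, 26% were separated in this way and 9.28% the opposite way. The other 6 members overlapped, and none was separated with DKO1 below. Zero was listed in all 3 WT samples for 13 members, including PCDHB1, and in all 3 DKO1 samples for PCDHB1 only.

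The test was limma on log2(TPM + 1), over the 20519 human genes whose 6 samples averaged 0.1 TPM or more, with adjustment over all of them. Fold changes are DKO1 minus WT on this scale, which understates changes at low levels, and the error given is the standard error (SE). A total of 23 members entered the test. Of these, 15 were called higher in DKO1 at an adjusted p below 0.05, 0 were called lower and 8 were not called. Among all tested genes 20.5% were called higher and 6.56% lower. Most of the 23 passed the filter through their DKO1 values, so their count describes them and does not stand for all members. When every human gene above 0 in any sample was tested, 32 of 50 members were called higher and 0 lower, against 14.9% higher and 3.72% lower over all genes in that fit. The median log2 fold change of the 50 was 0.185, beside 0.058 over all genes. Only PCDHB2 and PCDHGA10 reached 1 TPM in at least 3 samples, and did so through their 3 DKO1 values alone, so that DKO1 was called higher for both (18.8% of genes higher and 9.6% lower in that fit) is set by the filter. With the replicate number as a block, 13 of the 23 were called higher and 0 lower, beside 21.2% higher and 8.15% lower over all genes.

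The direction of the weaker members depended on scaling. Under quantile normalization, which gives every sample the same distribution, all tested genes had a median log2 fold change of −0.074, against 0.133 in the deposited scaling. It left 4 members called higher, PCDHB2, PCDHB14, PCDHB13 and PCDHA13, against 12.2% of all genes called higher and 12.7% lower. Another 8 of the 23 turned to a negative log2 fold change, none of them called. These were PCDHA1, PCDHAC1, PCDHAC2, PCDHB10, PCDHB11, PCDHGA11, PCDHGB2 and PCDHGB7. The median of the 23 was 0.106 by this scaling. Most of the 23 passed the filter through their DKO1 values, so a median above that of all genes is partly set by the filter. All 23 were positive under median-ratio scaling and after rescaling without mitochondrial and spike-in genes.

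**Figure D1:**
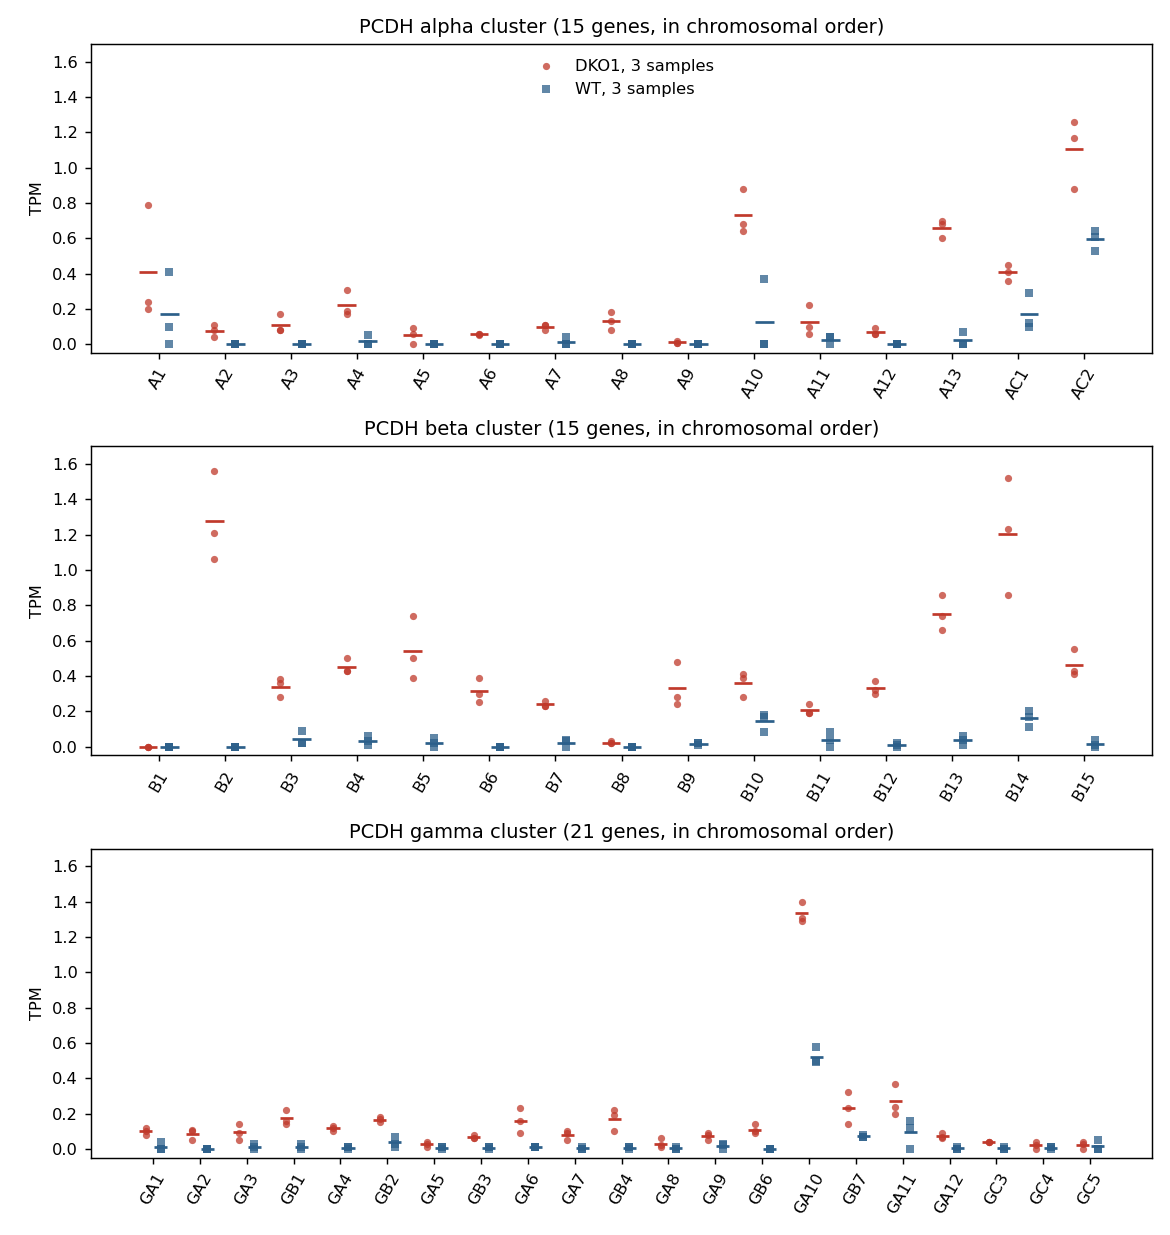
TPM of each of the 51 genes in chromosomal order, with a panel for each cluster. Circles are the 3 DKO1 samples, squares the 3 WT samples and bars their means. The beta genes separate most clearly, PCDHB1 lies at 0, and PCDHAC2 and PCDHGA10 are the highest in WT.

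The beta genes accounted for the largest part of the difference. Their summed level was 6.53, 7.73 and 6.26 TPM in DKO1 replicates 1, 2 and 3, against 0.3, 0.69 and 0.65 TPM in WT replicates 1, 2 and 3. The means differed 12.5-fold, beside 3.76-fold for the alpha cluster and 4.02-fold for the gamma cluster. No test set the clusters against each other. The beta cluster made up 46.9% ± 1.7 of the members' summed level in DKO1 and 21.3% ± 7.5 in WT (SD, n = 3 each). Of 15 beta genes, 13 were tested and 11 were called higher, beside 20.5% of all tested genes called higher. PCDHB10 and PCDHB11 also had higher DKO1 means but were not called. The beta genes, too, passed the filter mainly through their DKO1 values, since of these 13 all had a DKO1 mean of at least 0.1 TPM and only PCDHB10 and PCDHB14 had such a WT mean. Their transcripts are also the most distinct, since a median of 5.5% of the 100-base stretches of a beta gene occur in another member, against 46.1% for alpha and 42.6% for gamma genes.

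**Figure D2:**
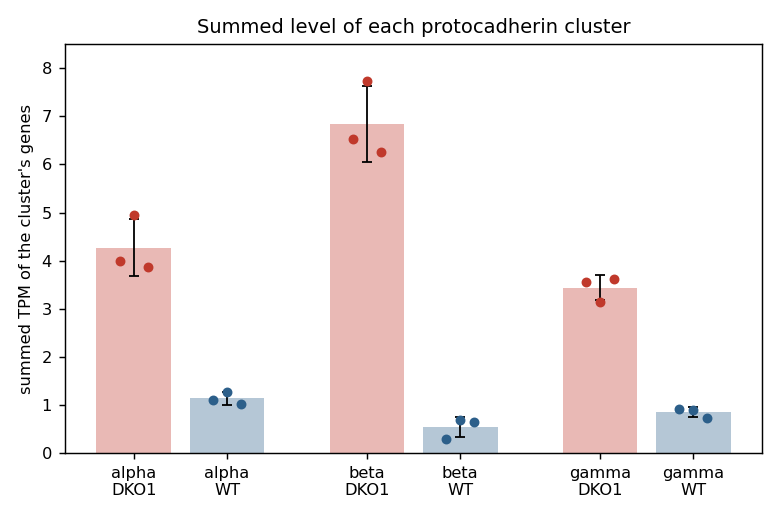
Summed TPM of the alpha, beta and gamma genes in each genotype. Bars are means, error bars SD and points the 3 samples, and the genotypes do not overlap in any cluster.

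Promoters of this cluster share a short element, and a few are shown, with PCDHB14 and PCDHB1 as examples without its exact letters. A conserved promoter element with a CGCT core, at which CTCF binds, is known for most clustered protocadherins, with PCDHB1 and some C-type isoforms as known exceptions. RefSeq promoter sequence (GRCh38.p14, a later build than that of the submitters) was found for 45 members, and 250 bases before the start were read. GGTGGCGCTG is the most frequent 10-letter word with CGCT in the beta promoters. Searched on both strands, it was in 10 of 13 beta promoters and in 0 of the other 32 members' promoters, beside 0.24% of 27305 promoters. CGCT, which each word searched here contains, was in 43 of 45 member promoters and in 64.3% of all promoters. The members without it were PCDHA9 and PCDHB8, so the PCDHB1 promoter held CGCT, though not in its nearest match to the word. The stretches below are all on the plus strand, and capitals mark GGTGGCGCTG or its nearest match.
PCDHB2, chr5:141094540-141094579: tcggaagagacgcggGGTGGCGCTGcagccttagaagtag
PCDHB13, chr5:141213861-141213900: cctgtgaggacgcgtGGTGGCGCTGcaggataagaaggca
PCDHB15, chr5:141245310-141245349: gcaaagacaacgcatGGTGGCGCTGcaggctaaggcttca
PCDHB10, chr5:141192295-141192334: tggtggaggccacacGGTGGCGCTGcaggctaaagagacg
PCDHB14, chr5:141223259-141223298: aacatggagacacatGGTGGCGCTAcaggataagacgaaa
PCDHB1, chr5:141051333-141051372: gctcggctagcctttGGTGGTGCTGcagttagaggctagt
Counting from 1 at the 5′ end of the searched letters, PCDHB14 differs by G10A and PCDHB1 by C6T. PCDHB8, which stayed at 0.02 to 0.03 TPM in DKO1, had no exact match in this window. The words were drawn from these promoters themselves, and a match is a description of letters, not of binding. Whether the letters relate to the level of PCDHB1 or any other beta gene was not tested.

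PCDHB2 (ENSG00000112852.4) had 1.21, 1.56 and 1.06 TPM in DKO1 and was listed at 0 in all 3 WT samples. This was the largest fold change of any tested member (log2 fold change 1.18, SE 0.11, adjusted p = 0.000485). Like the other beta proteins it is an adhesion protein without the shared constant tail. Its 250 bases before the start hold 10 CG dinucleotides, the sites of DNA methylation, in capitals here on the plus strand.
PCDHB2, chr5:141094365-141094614: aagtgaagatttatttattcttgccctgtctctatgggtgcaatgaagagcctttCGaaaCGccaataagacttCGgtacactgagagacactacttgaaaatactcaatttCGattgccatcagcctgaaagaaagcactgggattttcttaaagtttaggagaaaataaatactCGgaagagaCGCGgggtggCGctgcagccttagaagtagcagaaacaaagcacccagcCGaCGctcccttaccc
Over the 13 beta promoters the count ranged from 4 to 11, with a median of 6, and PCDHB1 held 5. The median over all promoters was 11.

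PCDHB14 (ENSG00000120327.4) had 0.86, 1.52 and 1.23 TPM in DKO1, against 0.11, 0.2 and 0.17 TPM in WT (log2 fold change 0.92, SE 0.14, adjusted p = 0.00331). PCDHB13 (ENSG00000187372.9) had 0.66, 0.86 and 0.74 TPM in DKO1, against 0.01, 0.04 and 0.06 TPM in WT (log2 fold change 0.76, SE 0.09, adjusted p = 0.00121). Both were well separated, and the lowest DKO1 value of PCDHB14 equalled the highest of PCDHB13. PCDHB5 had 0.74, 0.39 and 0.5 TPM in DKO1, against 0.05, 0.02 and 0 TPM in WT (adjusted p = 0.00708). Replicate 1 was the highest of its DKO1 samples, and all 3 lay far above WT. PCDHB15 averaged 0.463 ± 0.0757 TPM in DKO1 and 0.0167 ± 0.0208 TPM in WT (SD, n = 3 each; adjusted p = 0.0038), and PCDHB4 averaged 0.453 ± 0.0404 TPM in DKO1 and 0.0333 ± 0.0252 TPM in WT (adjusted p = 0.00411).

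The remaining beta genes formed a group with similar DKO1 levels. PCDHB3, PCDHB6, PCDHB7, PCDHB9 and PCDHB12 had DKO1 means of 0.24 to 0.34 TPM and WT means of 0 to 0.0433 TPM, with adjusted p from 0.00757 for PCDHB12 to 0.026 for PCDHB7. Some of these calls rest on all samples being present. Without WT replicate 1 the adjusted p was 0.0704 for PCDHB3, 0.0728 for PCDHB9 and 0.102 for PCDHB7, and without WT replicate 2 it was 0.0761, 0.0802 and 0.0881 for the same genes. Without WT replicate 3 it was 0.0509 for PCDHB6, 0.0791 for PCDHB9 and 0.0922 for PCDHB7. The call of PCDHB7 was also lost with the replicate number as a block (adjusted p = 0.0677). PCDHB10 had 0.39, 0.41 and 0.28 TPM in DKO1, against 0.08, 0.17 and 0.18 TPM in WT (adjusted p = 0.0762), and PCDHB11 had 0.19, 0.19 and 0.24 TPM in DKO1, against 0, 0.08 and 0.04 TPM in WT (adjusted p = 0.0699). Their genotypes did not overlap although neither passed. Among the pseudogenes of the clusters, which are no members, PCDHB18P stood at 0.15, 0.16 and 0.1 TPM in DKO1 and at 0, 0 and 0.02 TPM in WT, and the other 4 had means below 0.1 TPM in both genotypes.

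**Figure D3:**
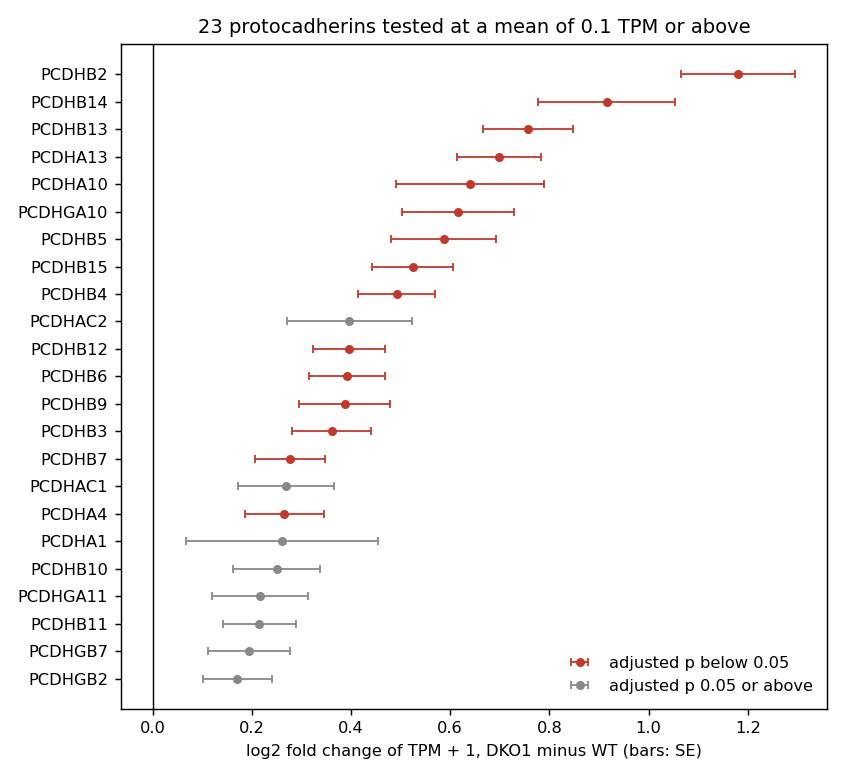
Log2 fold change of TPM + 1, DKO1 minus WT, with SE, for the 23 members with a mean of at least 0.1 TPM. The 15 in red passed an adjusted p of 0.05, with PCDHB2, PCDHB14 and PCDHB13 at the top, and under quantile normalization the 8 in grey turn negative.

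In the alpha cluster, PCDHA10 and PCDHA13 had the highest DKO1 means of the alternate isoforms, PCDHA1 to PCDHA13. Their DKO1 values were not apart from those of PCDHA1, which reached 0.79 TPM in replicate 2. The alpha proteins share a constant cytoplasmic tail, which in mouse links them to kinase signalling. PCDHA13 (ENSG00000239389.3) had 0.68, 0.7 and 0.6 TPM in DKO1, against 0.07, 0 and 0 TPM in WT (log2 fold change 0.70, SE 0.09, adjusted p = 0.00131). PCDHA10 (ENSG00000250120.2) had 0.64, 0.88 and 0.68 TPM in DKO1, against 0, 0 and 0.37 TPM in WT (log2 fold change 0.64, SE 0.15, adjusted p = 0.0192). Its WT level came from replicate 3 alone. With WT replicate 1 left out PCDHA10 had an adjusted p of 0.0788, and with WT replicate 2 left out 0.0805.

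PCDHA4 had 0.17, 0.31 and 0.19 TPM in DKO1, against 0, 0.05 and 0 TPM in WT, and was called narrowly (log2 fold change 0.27, SE 0.08, adjusted p = 0.0461). It did not hold when DKO1 replicate 1 (adjusted p = 0.0557) or WT replicate 1, 2 or 3 (0.142, 0.108 and 0.151) was left out, under median-ratio scaling (0.0661), without a variance trend (0.105) and with the replicate number as a block (0.0734). PCDHA1 had 0.24, 0.79 and 0.2 TPM in DKO1, against 0.1, 0.41 and 0 TPM in WT. Replicate 2 was the highest in both genotypes, the groups overlapped, and the gene did not pass (adjusted p = 0.366). The other 9 alternate alpha genes fell below the filter, with DKO1 means from 0.0133 TPM for PCDHA9 to 0.13 TPM for PCDHA8. Of these 9, 7 were listed at 0 in every WT sample, and PCDHA5 was also listed at 0 in DKO1 replicate 3.

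Alpha promoters carried a different version of the element. GATGTCGCT, their most frequent 9-letter word with CGCT, was in 9 of 11 promoters of alternate alpha genes, in 0 of the other 34 members' promoters and in 0.09% of all promoters. The examples are PCDHA10, at means of 0.733 TPM in DKO1 and 0.123 TPM in WT, and PCDHA8, at 0.13 TPM and 0. PCDHA8 was below the filter. GATGTCGCT is in capitals on the plus strand.
PCDHA10, chr5:140855837-140855875: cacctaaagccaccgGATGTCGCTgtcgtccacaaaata
PCDHA8, chr5:140841126-140841164: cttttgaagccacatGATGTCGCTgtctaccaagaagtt
Both hold the same capitals. The promoters without them were those of PCDHA9, at 0.0133 TPM in DKO1 on average and listed at 0 in WT, and PCDHA11, at 0.127 TPM in DKO1 and 0.0267 TPM in WT. The relation of these letters to the level was not tested. PCDHA10 held 7 CG dinucleotides in 250 bases and PCDHA8 held 2, while PCDHA12, at 0.07 ± 0.0173 TPM in DKO1 and listed at 0 in WT, held 7 as well.

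C-type isoforms, which lie at the end of the alpha and gamma clusters and in mouse neurons are expressed more constantly than the alternate ones, did not act as a group. PCDHAC2 (ENSG00000243232.3) had the highest WT mean of all members, with a range that overlapped that of PCDHGA10. It had 1.26, 0.88 and 1.17 TPM in DKO1, against 0.61, 0.64 and 0.53 TPM in WT, a ratio of 1.86 (log2 fold change 0.40, SE 0.13, adjusted p = 0.0555). The genotypes did not overlap, and the adjusted p was 0.0278 without DKO1 replicate 2, the lowest DKO1 sample, 0.0362 after rescaling without mitochondrial and spike-in genes, and 0.0458 without a variance trend. PCDHAC1 had 0.36, 0.41 and 0.45 TPM in DKO1, against 0.29, 0.1 and 0.12 TPM in WT, and did not pass (adjusted p = 0.083).

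The gamma C-type genes stayed close to 0. PCDHGC3 had 0.04 TPM in each DKO1 sample and 0.01, 0 and 0 TPM in WT. PCDHGC4 reached at most 0.04 TPM in DKO1 and 0.01 TPM in WT, and PCDHGC5 at most 0.04 TPM in DKO1 and 0.05 TPM in WT. PCDHGC4 and PCDHGC5 overlapped between genotypes, and none of these 3 was called when all genes above 0 were tested (adjusted p = 0.141, 0.614 and 0.848 for PCDHGC3, PCDHGC4 and PCDHGC5). C-type promoters were richer in CG dinucleotides, with 13 to 18 in the 4 promoters found, against 2 to 14 in those of the gamma A and B genes. The PCDHAC2 stretch, which has 13 in capitals on the plus strand, is shown as the promoter of the member most expressed in WT.
PCDHAC2, chr5:140966226-140966475: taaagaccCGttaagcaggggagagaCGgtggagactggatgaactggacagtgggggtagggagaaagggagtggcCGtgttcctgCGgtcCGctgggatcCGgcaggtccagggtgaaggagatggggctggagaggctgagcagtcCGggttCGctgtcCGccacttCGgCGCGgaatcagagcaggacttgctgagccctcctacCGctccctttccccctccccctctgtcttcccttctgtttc
PCDHGC3, at 0.04 TPM in DKO1, held 15, and the relation of the count to the level was not tested.

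PCDHGA10 had the highest mean of the gamma genes in both genotypes, at 1.33 TPM of a gamma sum of 3.44 TPM in DKO1 and 0.523 of 0.857 TPM in WT. PCDHGA10 (ENSG00000253846.1) had 1.31, 1.29 and 1.4 TPM in DKO1, against 0.49, 0.58 and 0.5 TPM in WT, a ratio of 2.55 (log2 fold change 0.62, SE 0.11, adjusted p = 0.0078). It had the highest DKO1 mean of all members and was the only gamma gene called, a call lost under quantile normalization (adjusted p = 0.298). Its DKO1 values overlapped those of PCDHB2 and PCDHB14 and lay just above those of PCDHAC2. Together PCDHAC2 and PCDHGA10 made up 16.9% ± 2.8 of the members' summed level in DKO1 and 44.1% ± 2.5 in WT (SD, n = 3 each), so the WT signal was concentrated in these genes. Beside PCDHGA8, a gene at 0.03 ± 0.0265 TPM in DKO1 and 0.00333 ± 0.00577 TPM in WT, it carries the same version of the element, GCGCCGCTGT, in capitals on the plus strand.
PCDHGA10, chr5:141412928-141412967: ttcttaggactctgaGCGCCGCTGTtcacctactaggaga
PCDHGA8, chr5:141392565-141392604: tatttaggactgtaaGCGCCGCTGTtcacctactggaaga
These letters, the most frequent 10-letter word with CGCT in the gamma A and B promoters, were in 8 of 17 of them, in 0 of the other 28 members' promoters and in 0.11% of all promoters. The PCDHGA10 promoter held 3 CG dinucleotides and that of PCDHGA8 held 4.

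Among the other gamma genes, PCDHGA11, PCDHGB2 and PCDHGB7 entered the test and did not pass. PCDHGA11 had 0.2, 0.37 and 0.24 TPM in DKO1, against 0.16, 0.12 and 0 TPM in WT (adjusted p = 0.143). PCDHGB7 had 0.23, 0.14 and 0.32 TPM in DKO1, against 0.07, 0.07 and 0.08 TPM in WT (adjusted p = 0.131), and PCDHGB2 had 0.15, 0.17 and 0.18 TPM in DKO1, against 0.07, 0.03 and 0.01 TPM in WT (adjusted p = 0.114). All 3 were separated without passing. The other 17 gamma genes were below the filter, with DKO1 means up to 0.173 TPM for PCDHGB1 and WT means of at most 0.0167 TPM. All 6 gamma B genes had DKO1 values above their WT values, as did 10 of 12 gamma A genes, with PCDHGA5 and PCDHGA8 overlapping. Over all human genes with a value, 26% were separated in this direction. Because gamma genes share constant exons, as do alpha genes, reads from those exons cannot be assigned by sequence, and the split of a cluster's reads among its members is uncertain.

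The clusters were next set beside genes on either side of them on 5q31. Of 20 tested neighbours, 1 was called higher and 2 lower, beside 20.5% of all tested genes called higher and 6.56% lower. The neighbours' median log2 fold change was 0.15, beside 0.133 over all genes. DND1, an RNA-binding protein of germ cells, had 0.86, 0.89 and 1.11 TPM in DKO1, against 0.07, 0.17 and 0.07 TPM in WT (adjusted p = 0.00151). GNPDA1, an enzyme of glucosamine metabolism, fell to 40.9 ± 3.7 TPM in DKO1, against 69.2 ± 4.54 TPM in WT (SD, n = 3 each; adjusted p = 0.00375). SPRY4, an inhibitor of growth factor signalling, was lower too (adjusted p = 0.0462), but not when any single sample was left out (adjusted p from 0.069 to 0.16) or without mitochondrial and spike-in genes (0.095). TAF7, a general transcription factor subunit whose gene lies between the beta and gamma clusters, had 115, 123.7 and 119.6 TPM in DKO1, against 94.5, 102.4 and 102.4 TPM in WT, and did not pass (adjusted p = 0.0888). SLC25A2, between the same clusters, stayed at or below 0.05 TPM in all samples. TAF7 and SLC25A2 were named after their values were seen.

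**Figure D4:**
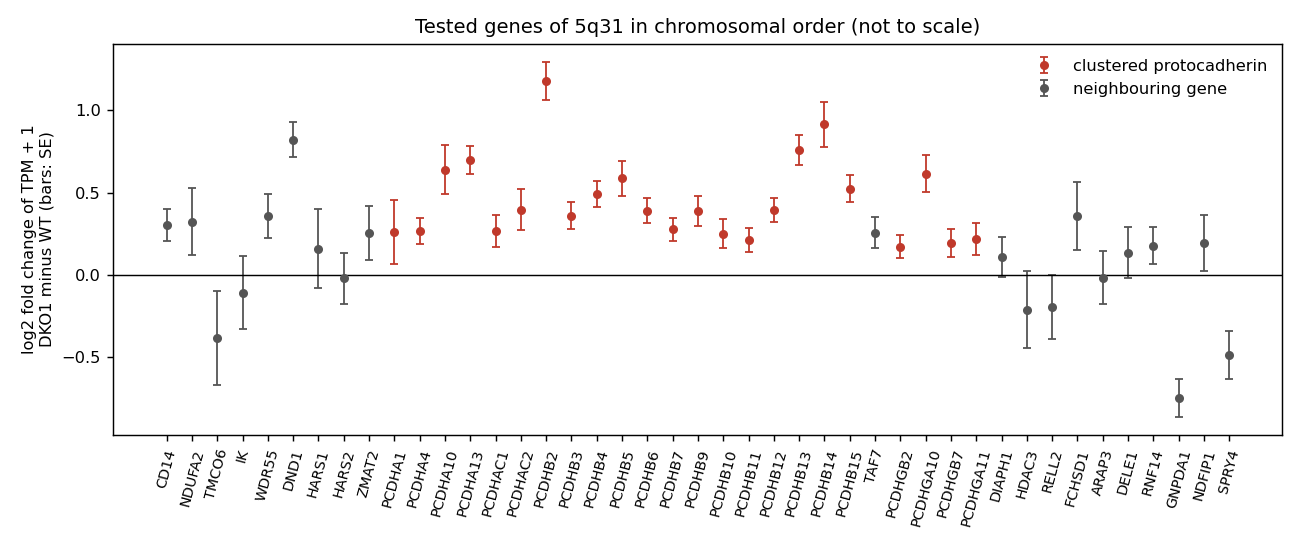
Log2 fold change of TPM + 1, DKO1 minus WT, with SE, for tested members (red) and tested neighbours (grey) in chromosomal order, not to scale. All members lie above 0 in the deposited scaling, 8 of them below 0 under quantile normalization, and the neighbours lie on both sides.

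Genes known to act on the clusters were read next. Of 20 tested regulators, 0 were called higher and 6 lower, beside 20.5% of all tested genes called higher and 6.56% lower. Without a variance trend 1 was called higher, beside 19.3% of all genes. The lower count was 10 under median-ratio scaling and without DKO1 replicate 3, beside 10.3% and 10.2% of all genes. It was 3 without WT replicate 1 or 2, beside 2.8% and 2.33% of all genes. DNMT1 and DNMT3B, the targeted genes given above, were 2 of the 6. STAG2, a cohesin subunit, averaged 34.8 ± 12.9 TPM in DKO1 and 80.7 ± 3.34 TPM in WT (adjusted p = 0.00868). CTCF, named after its values were seen, had 34.5, 37.4 and 35.4 TPM in DKO1, against 54.3, 52 and 55 TPM in WT (log2 fold change −0.58, adjusted p = 0.0059). REST, a repressor of neuronal genes, averaged 12.9 ± 2.5 TPM in DKO1 and 23 ± 2.46 TPM in WT (adjusted p = 0.0151, with 0.0642 and 0.068 where WT replicate 1 or 2 was left out). SMCHD1, a repressor of the clusters in mouse, averaged 34.3 ± 12.3 TPM in DKO1 and 62.5 ± 8.2 TPM in WT (adjusted p = 0.0421), a call lost in 5 of the 6 fits without a sample (adjusted p from 0.061 to 0.133), with that without DKO1 replicate 3 as the exception, and also without the filter (0.0707) or the variance trend (0.0511).

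Of 10 tested signalling partners, 2 were called higher and 1 lower, beside 20.5% of all tested genes called higher and 6.56% lower. With the replicate block 2 were called lower, beside 8.15% of all genes. After rescaling without mitochondrial and spike-in genes 4 were called higher and 0 lower, beside 24.3% and 5.28% of all genes. Under median-ratio scaling 3 were called lower, beside 10.3% of all genes. RET, a receptor kinase that binds clustered protocadherins, had 4.28, 4.18 and 4.31 TPM in DKO1, against 0.36, 0.28 and 0.15 TPM in WT (log2 fold change 2.06, SE 0.14, adjusted p = 0.000112). FYN, a Src-family kinase that binds alpha protocadherins, averaged 21.7 ± 0.371 TPM in DKO1 and 9.2 ± 1.25 TPM in WT (adjusted p = 0.00116). PTK2, a focal adhesion kinase that the constant tails bind, fell to 99 ± 12.8 TPM in DKO1, against 142 ± 12.2 TPM in WT (adjusted p = 0.024). PTK2 did not pass under quantile normalization (adjusted p = 0.0663), after rescaling without mitochondrial and spike-in genes (0.0709), or when DKO1 replicate 1 (0.0646) or WT replicate 1, 2 or 3 (0.0983, 0.0985 and 0.0522) was left out.

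Calls among protocadherins and related cadherins outside the clusters went both ways, but the DKO1 mean was the higher in most of them. Of 14 in the table, 5 were tested, 2 called higher and 1 lower, beside 20.5% of all tested genes called higher and 6.56% lower. CDHR1, a photoreceptor cadherin, had 1.94, 1.43 and 2.07 TPM in DKO1 and was listed at 0 in WT (adjusted p = 0.00028). PCDH15, a protein of hair cell tip links, averaged 0.31 ± 0.0608 TPM in DKO1 and 0.00667 ± 0.00577 TPM in WT (adjusted p = 0.0107, with 0.0508 and 0.0544 where WT replicate 2 or 3 was left out, and 0.394 under quantile normalization). PCDH7 went the opposite way, with 0.03, 0.07 and 0.03 TPM in DKO1, against 3.48, 3.56 and 2.71 TPM in WT (adjusted p = 0.000113). It alone had all DKO1 values below its WT values. PCDH1, which was not called, and the untested PCDH8, PCDH9, PCDH10, PCDH17 and PCDH18 had all DKO1 values above, as had CDHR1 and PCDH15. Over all human genes with a value, 26% were separated with DKO1 above and 9.28% with DKO1 below. PCDH9 had 0.13, 0.19 and 0.12 TPM in DKO1 and was listed at 0 in WT. Without a filter 4 were called higher and 1 lower, beside 14.9% and 3.72% of all genes.

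Markers of other cell types were read beside the members. Unless stated otherwise, each count below stands beside 20.5% of all tested genes called higher and 6.56% lower. Of 8 tested neuronal markers STMN2, ELAVL4, MAP2 and SYN1, 4 in all, were called higher. TUBB3, SNAP25, SYP and RBFOX3 were not called. The summed level of the 10 neuronal markers ran from 20.5 to 27.6 TPM in DKO1 and from 6.35 to 8.11 TPM in WT. STMN2 alone averaged 9.67 TPM in DKO1 and 0.273 TPM in WT. DCX and ELAVL3 were at or below 0.07 TPM in every sample. The 6 fibroblast markers summed to 2.78 to 3.4 TPM in DKO1 and 0.73 to 1.37 TPM in WT, with 3 called higher, COL1A2, DCN and THY1. COL1A1 and PDGFRB were not called. COL3A1 went the other way, with 0.17, 0.12 and 0.07 TPM in DKO1, against 0.3, 0.33 and 0.26 TPM in WT, and was not called (adjusted p = 0.0942). Without a filter and under quantile normalization 1 fibroblast marker was called lower, beside 3.72% and 12.7% of all genes. The 5 blood markers summed to 0.98 to 1.38 TPM in DKO1 and 0.22 to 0.49 TPM in WT, with 1 called higher, PTPRC, and HBB at 0 throughout. MAP2, DCN and THY1 were called weakly. Under quantile normalization their adjusted p was 0.214, 0.354 and 0.571 in that order. MAP2 did not pass in 5 of the 6 fits that left out a sample, all but that without DKO1 replicate 1 (adjusted p from 0.0586 to 0.102). DCN did not pass with DKO1 replicate 1, WT replicate 2 or WT replicate 3 left out (0.0516, 0.0942 and 0.105). THY1 did not pass with any WT replicate left out (0.0798 to 0.0928), without a variance trend (0.0671) or with the replicate block (0.056). The part of these genes in the members' difference was not tested. Of 7 tested epithelial markers 1 was called higher, CDH1, and 1 lower, CDX2, whose call was lost without DKO1 replicate 1 or any WT replicate (adjusted p from 0.0502 to 0.0882). KRT8 was not called (adjusted p = 0.0606), although all its DKO1 values lay below its WT values. It had 256, 142.3 and 258.2 TPM in DKO1, against 488.4, 332.9 and 325.8 TPM in WT. KRT18, KRT19, VIL1 and EPCAM overlapped between genotypes and were not called. KRT18 averaged 87.8 TPM in DKO1 and 142.8 TPM in WT, and KRT19 averaged 20.8 and 12.1 TPM. VIL1 averaged 0.243 TPM in DKO1 and 0.357 TPM in WT. EPCAM ran from 371.3 to 500.4 TPM in DKO1 and from 457.3 to 536.4 TPM in WT. The untested CDX1 and LGR5 were at most 0.24 TPM in DKO1 and 0.01 TPM in WT.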

How the data were processed

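The deposited values are TPM per gene, which the authors gave to 2 decimals, so the lowest members lie within a few steps of 0.01. The submitters' processing notes name RSEM 1.2.21, STAR 2.5.3a, edgeR 3.12.1, FastQC and Trim Galore 0.4.0, and the builds hg19 and GRCh37, without role or order. Which annotation release and strand setting served is not stated there. TPM keeps no depth, so depth is unknown and no lower limit of detection can be set. A value of 0 may be any level that rounds to 0.

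The table holds 57897 rows, of which 77 spike-in rows stayed out of every test. Symbols matched 51996 human rows (89.9%), and biotype and gene order came from GENCODE 29. Fits used limma 3.58.1 in R 4.3.3, with a variance trend, Benjamini-Hochberg adjustment and a threshold of 0.05. They were tried on simulated data with larger changes than those of most tested members, so recovery of changes as small as theirs was not checked. The minimum mean of 0.1 TPM ignores genotype. No ratio is given where a group mean is below 0.5 TPM. Members, lists and the naming rule (called members, those at a mean of 0.5 TPM or above in a genotype, C-type genes, and up to 4 called genes of each list) were chosen with earlier results of these data known. Same-numbered samples deviated together from their genotype means (correlations 0.236, 0.43 and 0.172 over 20519 genes). The labels state no pairing, so the main fit has no block and its p-values ignore any pairing. The fit with the replicate number as a block is an alternative, given for the member counts and for named genes whose call it changed. With this block 7 of 20 tested regulators and 2 of 7 tested epithelial markers were called lower, beside 8.15% of all genes. Of 8 tested neuronal markers 5 were called higher, beside 21.2% of all genes. Mitochondrial genes took 21.2% to 27.7% of TPM in DKO1 and 19.7% to 20.1% in WT.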

Additional observations from a re-analysis of the deposited data

How the results depend on the processing

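The count of members called higher, 15 as reported, was 32 of 50 without a filter, 2 of 2 with at least 1 TPM in at least 3 samples, 4 under quantile normalization, 13 with the replicate block, and 10 to 16 when 1 sample was left out (11.6% to 22.6% of all genes called higher in those fits). No member was called lower in any of these fits; with the replicate block the calls of PCDHB7 and PCDHA4 were lost and no other named member's call changed. Over all genes 4207 were called higher and 1346 lower, against 2558 higher with the 1 TPM filter, 2498 higher and 2613 lower under quantile normalization, and 3614 higher and 2115 lower under median-ratio scaling. Leaving out 1 sample gave 2409 (without WT replicate 3) to 4600 higher genes (without DKO1 replicate 2), and 484 (without WT replicate 2) to 2057 lower (without DKO1 replicate 3), with 871 lower without DKO1 replicate 1, and 2728 higher and 581 lower without WT replicate 1. Under quantile normalization PCDHAC2 and PCDHAC1 turned to log2 fold changes of −0.02 and −0.046. The beta sum ratio ran from 10.2 (without WT replicate 1) to 14.4 (without WT replicate 2). The gamma and overall ratios were 3.63 and 5.2 under median-ratio scaling, and 4.34 and 6.21 after rescaling without mitochondrial and spike-in genes. The cause of these shifts was not tested. The rounding to 2 decimals and unknown depth limit every value below about 0.1 TPM.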
